A study of Mus musculus with 10 samples.

Results

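Mcl1 and 9 other genes of the Bcl2 family were followed through 4 deposited expression tables from C2C12 cells, a mouse myoblast line that fuses into myotubes when serum is withdrawn. The 10 genes were taken by name, whatever their values, from the 23388 genes listed in all 4 tables. They comprised 3 anti-death genes (Mcl1, Bcl2, Bcl2l1), 2 effectors (Bax, Bak1) and 5 BH3-only genes (Bcl2l11, Pmaip1, Bbc3, Bid, Bad). In 3 tables the ubiquitin ligase Huwe1 was depleted with lentiviral shRNAs, in myoblasts kept in growth medium (day 0), in cells taken through 6 days in differentiation medium (day 6), and in myotubes infected after 4 days of differentiation and harvested on day 8. The fourth table compared, at day 6, a stable C2C12 line carrying a USP10 cDNA under the EF1a promoter with a control. USP10 is a deubiquitinase that was studied as a counterpart of Huwe1.

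The day 0 and day 6 controls are labelled wild type, whereas the myotube control is labelled as treated with a non-targeting RNA and appears in the header of its table as wild type. Each Huwe1 table set 1 control library against 2 knockdown libraries, each made with its own hairpin. By the sample labels the hairpin pair of day 0 and day 6 was not that of the myotubes, whereas the methods name a single pair for both. Knockdown myoblasts and knockdown myotubes were selected with puromycin, and the tables give both knockdown libraries as 1 pooled value. The header of the USP10 table names 1 library on either side, and which sample its control came from could not be mapped. No comparison therefore has a replicate check, and no test or p-value is given for any difference between columns.

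Proteins of the Bcl2 family control the permeability of the outer mitochondrial membrane and thereby the intrinsic pathway of apoptosis. Anti-death members hold the effectors in check, BH3-only members bind and neutralise the anti-death members or engage the effectors directly, and freed effectors form pores that release cytochrome c. Mcl1 is a short-lived member whose protein is a known substrate of Huwe1, and its abundance is set largely by ubiquitination. The measurements here are of mRNA, summed over isoforms, so protein levels and the long and short splice forms of Mcl1 and Bcl2l1 were not resolved.

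The sequences just upstream of 3 members are given first: Mcl1, whose mRNA varied little, and Bcl2 and Bid, which passed 2-fold in at least 1 table. For 9 of the 10 members, 15 windows of 250 bases ending at an annotated RefSeq start (GRCm38.p6) were searched. No window of Pmaip1 was searched. Capitals mark the GC box, written GGGCGG or, on the opposite strand, CCGCCC. Each sequence reads 5′ to 3′ on the strand of the gene. The windows are chr3:95658471-95658720 on the plus strand for Mcl1, chr1:106714291-106714540 on the minus strand for Bcl2 and chr6:120916825-120917074 on the minus strand for Bid.
Mcl1: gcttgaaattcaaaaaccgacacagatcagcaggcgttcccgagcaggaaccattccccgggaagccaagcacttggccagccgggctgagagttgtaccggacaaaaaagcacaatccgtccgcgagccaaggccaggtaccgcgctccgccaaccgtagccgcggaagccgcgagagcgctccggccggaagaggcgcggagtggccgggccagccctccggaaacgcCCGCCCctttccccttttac
Bcl2: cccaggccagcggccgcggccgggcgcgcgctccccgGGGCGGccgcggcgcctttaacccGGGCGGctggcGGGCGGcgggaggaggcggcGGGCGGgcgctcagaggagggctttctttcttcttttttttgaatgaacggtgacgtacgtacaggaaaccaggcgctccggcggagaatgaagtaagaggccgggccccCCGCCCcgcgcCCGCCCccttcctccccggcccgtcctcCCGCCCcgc
Bid: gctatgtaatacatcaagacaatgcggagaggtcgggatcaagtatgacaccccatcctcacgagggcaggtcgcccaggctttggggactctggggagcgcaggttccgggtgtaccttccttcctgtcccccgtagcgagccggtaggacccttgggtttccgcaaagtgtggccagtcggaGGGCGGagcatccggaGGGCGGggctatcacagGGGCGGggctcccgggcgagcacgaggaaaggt

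The Bcl2 window held 7 GC boxes, that of Bid 3 and that of Mcl1 1. The GC content was 74.8% for Bcl2, 64.4% for Mcl1 and 63.6% for Bid. Over the 15 windows of the family, searched on both strands, 10 held a GC box, against 32.7% of 32817 promoters of the same length. None of the 15 windows held the TATA box letters TATAAA, which 12.4% of all promoters did. An E box (CANNTG, the kind of site that myogenic factors bind) was in 9 of the 15 windows and in 66.2% of all promoters, and CCAAT was in 4 of the 15 and in 33.8% of all promoters. These matches describe the letters of the windows only.

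Values are FPKM (fragments per kilobase of transcript, scaled to the size of the library), and differences are log2 ratios of treated to control within a table. A gene counts as tested here, although no p-value is involved, where it had at least 1 FPKM in at least 1 column, and "rose" and "fell" are used for a difference of at least 2-fold. The tables were normalized separately, so a level in one table set beside a level in another is a description. Depth, estimated from the FPKM value of a single fragment, was 18100000 to 29900000 fragments for the controls of the Huwe1 tables and the USP10 library, and 7800000 for the control of the USP10 table, while the pooled columns gave no estimate. Huwe1 itself fell at day 0, from 38.3 to 15.2 FPKM. It went from 35.1 to 21.9 FPKM at day 6 and from 55.4 to 33.0 FPKM in myotubes, both short of 2-fold. Usp10 rose from 10.3 to 38.3 FPKM in the USP10 table and from 13.2 to 35.4 FPKM in the day 6 knockdown. In the day 0 control the myoblast markers Myod1 and Des read 21.7 and 345 FPKM, while Pax7 and the muscle enzyme gene Ckm were listed at 0. All 10 members were tested in all 4 tables.

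The lowest value of a member was that of Bcl2l11 in the day 0 control, which stood for about 36.7 fragments per kilobase of transcript. The lowest values in the other control columns were those of Bcl2, at 65.4 fragments per kilobase at day 6, 50.9 in the myotube control and 24.9 in the shallower control of the USP10 table. These are the least deeply counted members of each control column, and fragment numbers bear on counting error only.

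The Huwe1 and the USP10 tables each hold a day 6 control column. Both headers name the same wild-type day 6 library, yet 0 of 14482 genes above 0 in both columns had an identical value, so whether the pair shows a spread between cultures or between processing runs cannot be told apart. They were at least 2-fold apart for 19.9% of 11459 genes, and 2 of the 10 members were among those. Bcl2l1 read 23.5 and 10.5 FPKM, and Bcl2l11 2.41 and 5.99 FPKM, in the Huwe1 and USP10 tables respectively. The remaining 8 members were 1.13-fold (Bbc3) to 1.88-fold (Pmaip1) apart. The members' median absolute difference between these controls, 0.63 on the log2 scale, was larger than the median absolute treated-to-control difference of the members in any of the 4 tables, which ran from 0.34 at day 0 to 0.56 at day 6.

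**Figure D1:**
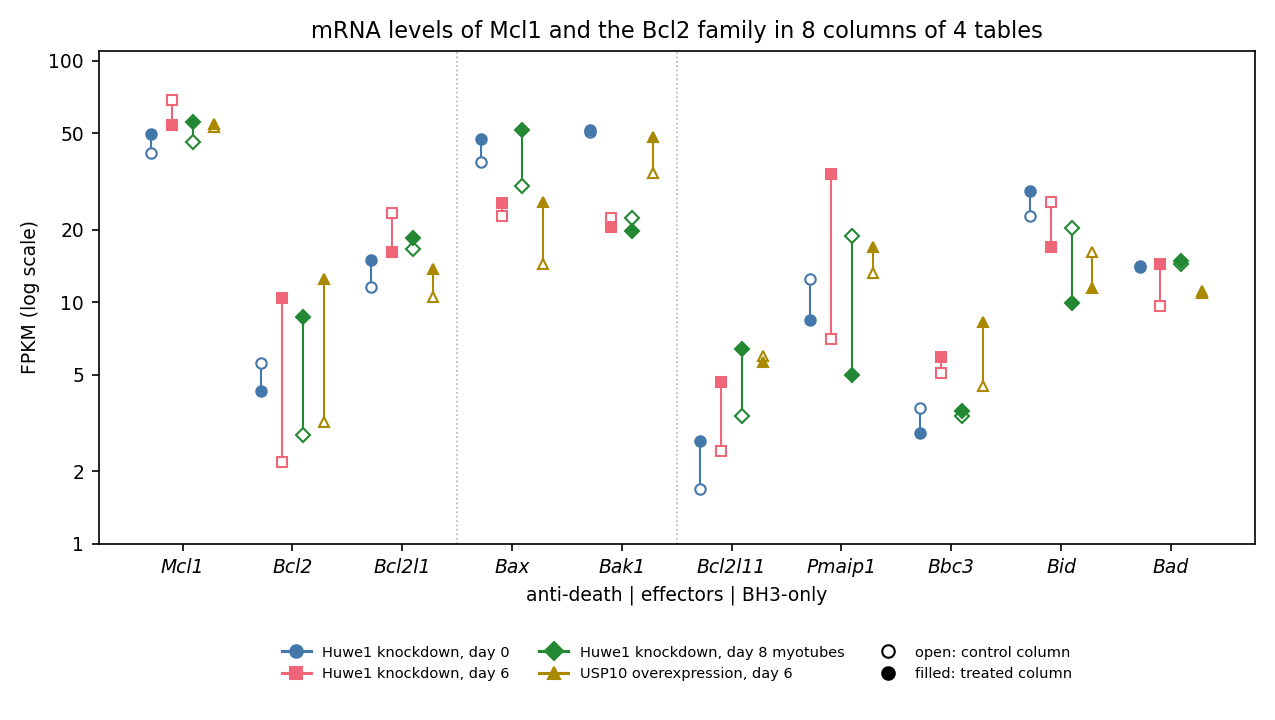
Levels of the 10 members in FPKM (log axis) in the control (open) and treated (filled) column of each of the 4 tables, 1 value per column. Mcl1 stayed between 41.5 and 68.9 FPKM, whereas Pmaip1 ran from 4.98 to 34.1 FPKM.

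Mcl1 (chromosome 3, 95658721 to 95663178 in mm10) was the most abundant member in 6 of the 8 columns, on the per-length scale of FPKM, and Bak1 exceeded it in both day 0 columns. In myoblasts Mcl1 read 41.5 FPKM without and 49.7 FPKM with knockdown, a log2 ratio of 0.26. At day 6 the control stood at 68.9 FPKM and the knockdown at 54.4 FPKM (-0.34). In myotubes it was 46.1 and 55.9 FPKM (0.28), and with USP10 it was 53.3 and 54.9 FPKM (0.04, or -0.01 after centring on the median gene). Its difference from control was thus 1.03-fold to 1.27-fold, short of the 1.29-fold distance between both day 6 controls, and its sign differed between tables. That distance was read at day 6 only and gives no spread for the day 0 and myotube tables. The share of tested genes with a lower ratio than Mcl1 was 82.1% at day 0, 33.9% at day 6, 68.1% in myotubes and 49.6% with USP10. Over the 8 columns Mcl1 varied 1.66-fold, the narrowest range of the family after Bad (1.54-fold).

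Bcl2 (chromosome 1, 106538179 to 106714290), the founding anti-death gene, showed the widest range of the anti-death genes, 5.68-fold over the 8 columns. At day 0 it read 5.62 FPKM in control cells and 4.31 FPKM after knockdown (log2 ratio -0.38). It then rose in each of the 3 tables from differentiation medium: from 2.19 to 10.4 FPKM in the day 6 knockdown (2.25), from 2.81 to 8.71 FPKM in knockdown myotubes (1.63) and from 3.19 to 12.4 FPKM with USP10 (1.96). All 4 control values lay at or below 5.62 FPKM and the 3 treated values after day 0 all lay above it. The day 6 knockdown value was above both day 6 control columns. The share of tested genes with a higher ratio than Bcl2 was 3.28% in myotubes, 3.74% with USP10 and 7.35% at day 6.

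The rise of Bcl2 moved with a loss of differentiated muscle markers in the same columns. The summed level of 6 such markers (Myog, Myh3, Ckm, Acta1, Tnnt3 and Mymk, listed as Tmem8c) went from 12161 to 1874 FPKM in the day 6 knockdown, from 10161 to 2242 FPKM in knockdown myotubes and from 5414 to 2397 FPKM with USP10. All 6 fell in both knockdowns and 5 of 6 with USP10, and at day 0, where Bcl2 did not rise, they summed to 5.69 FPKM in control and 8.57 FPKM in knockdown cells. Fibroblast or mesenchymal markers (Dcn, Col1a1, Pdgfra, Ly6a) went from 16.1 to 3683 FPKM in the day 6 knockdown and from 142 to 3563 FPKM with USP10, with 4 of 4 and 2 of 4 rising and Dcn alone at 2987 and 3037 FPKM. In myotubes they summed to 89.1 FPKM in control and 86.1 FPKM in knockdown cells, most of it Col1a1 (69.1 and 65.4 FPKM). Of the others, Dcn (4.19 to 8.75 FPKM) and Pdgfra (1.95 to 7.74 FPKM) rose and Ly6a (13.9 to 4.28 FPKM) fell. The part of these markers in the Bcl2 values was not tested. In bulk RNA a change in the share of a cell type and a change in RNA per cell cannot be told apart.

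Macrophage, endothelial and adipocyte markers were read in the same 8 columns. The 3 macrophage or leukocyte markers summed to at most 4.65 FPKM in any column, with Adgre1 (listed as Emr1) at 0 in all 8 columns. The endothelial pair (Pecam1, Cdh5) went from 0.0441 to 6.84 FPKM in the day 6 knockdown and from 0.624 to 6.85 FPKM with USP10, and was highest in the day 0 control, at 13.5 FPKM with Pecam1 at 0. Among 3 adipocyte markers Adipoq was listed at 0 in all 8 columns, and their sum did not exceed 16.0 FPKM. Most of it was Pparg, at 2.83 to 14.6 FPKM. Fabp4 rose from 0.287 to 1.33 FPKM at day 0, from 0.348 to 4.68 FPKM at day 6 and from 0.535 to 3.84 FPKM with USP10. The summed myoblast markers (Myod1, Myf5, Des, Pax7) were lower in all 4 treated columns, with sums of 379 and 191 FPKM at day 0, 1935 and 1164 FPKM at day 6, 1669 and 756 FPKM in myotubes, and 1149 and 1053 FPKM with USP10, control first. Des made up most of these sums. It read 345 FPKM in the day 0 control and 1769 and 1510 FPKM in the day 6 and myotube controls of the Huwe1 tables. The sums therefore do not measure a share of myoblasts. Myf5 went the other way in 2 tables. It rose from 3.51 to 18.5 FPKM in the day 6 knockdown and from 4.79 to 20.2 FPKM with USP10. Pax7 fell from 7.54 to 0.0438 FPKM in the day 6 knockdown and from 8.27 to 0.0808 FPKM with USP10. In myotubes Pax7 read 24.7 and 36.7 FPKM. Their part in the members' values was not tested.

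Bcl2l1 (chromosome 2, 152780668 to 152831682), which encodes the anti-death protein Bcl-xL, did not pass 2-fold in any table. Control and treated values were 11.6 and 14.9 FPKM at day 0 (log2 ratio 0.37), 23.5 and 16.1 FPKM at day 6 (-0.54), 16.6 and 18.5 FPKM in myotubes (0.16) and 10.5 and 13.7 FPKM with USP10 (0.39). The day 6 knockdown value lay between the day 6 controls of both tables, so its lower value there is within the distance between controls. Bcl2l2, a further anti-death gene, was higher in all 4 treated columns without reaching 2-fold, from 6.999 and 8.76 FPKM at day 0 to 15.2 and 17.5 FPKM at day 6. The near-identical copies Bcl2a1a, Bcl2a1b and Bcl2a1d were listed at 0 in all 8 columns.

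Within a column, ratios between members do not depend on how the tables were scaled. Mcl1 made up 70.7% of the summed FPKM of the 3 anti-death genes in the day 0 control and 72.1% in the day 0 knockdown. The share was 72.9% and 67.2% at day 6, 70.4% and 67.3% in myotubes, and 79.6% and 67.7% in the USP10 table. It was thus lower than control in the 3 treated columns in which Bcl2, itself part of the sum, rose. Both day 6 controls (72.9% and 79.6%) lay further apart than control and treated did at day 6 or in myotubes. The share of Bcl2 went from 2.31% to 12.9% at day 6, from 4.29% to 10.5% in myotubes and from 4.76% to 15.4% with USP10, but from 9.57% to 6.25% at day 0. Mcl1 exceeded Bcl2 by 31.5-fold in the day 6 control and by 5.22-fold in the day 6 knockdown. That ratio was 7.39 and 11.5 at day 0, 16.4 and 6.42 in myotubes, and 16.7 and 4.41 with USP10, control first.

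**Figure D2:**
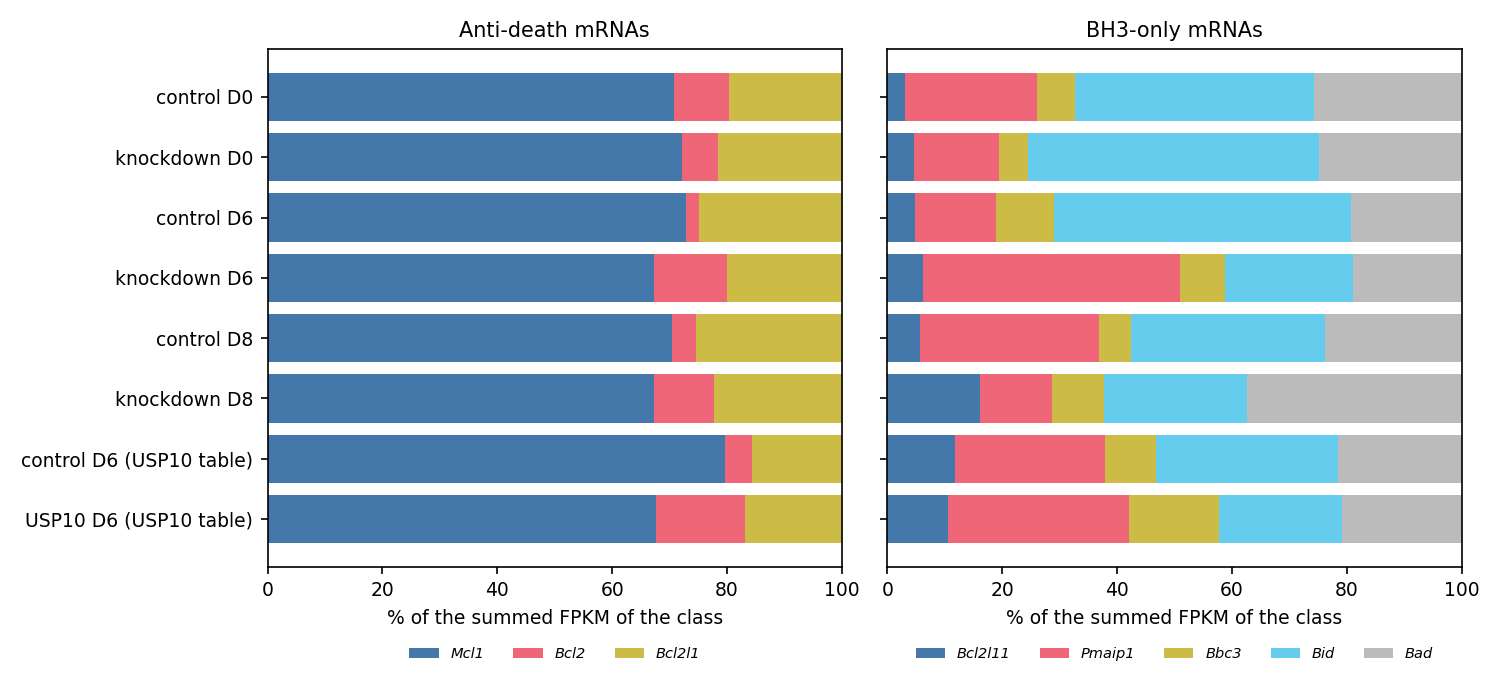
Share of each gene in the summed FPKM of the 3 anti-death mRNAs (left) and of the 5 BH3-only mRNAs (right), in percent, in each of the 8 columns. Mcl1 fills 67.2% to 79.6% of the anti-death sum throughout, and Pmaip1 fills 44.8% of the BH3-only sum in the day 6 knockdown and 12.5% in knockdown myotubes.

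The effectors Bax and Bak1, which form the pores of the outer membrane, did not pass 2-fold in any table. Bax (chromosome 7, 45461695 to 45466898) was higher in all 4 treated columns. It read 38.2 and 47.6 FPKM at day 0 (log2 ratio 0.32), 22.7 and 25.7 FPKM at day 6 (0.18), 30.2 and 51.8 FPKM in myotubes (0.78), and 14.4 and 26.1 FPKM with USP10 (0.85). Both day 6 controls stood 1.57-fold apart for Bax, below the 1.71-fold and 1.81-fold differences in myotubes and with USP10, and the USP10 value was above both. Bak1 (chromosome 17, 27018035 to 27036378) showed no such constant sign. It read 50.6 and 51.8 FPKM at day 0 (0.03), 22.3 and 20.4 FPKM at day 6 (-0.13), 22.2 and 19.7 FPKM in myotubes (-0.18), and 34.2 and 48.2 FPKM with USP10 (0.50). The ratio of Bax to Bak1 was therefore higher than control in each treated column, most of all in myotubes, where it was 1.36 and 2.63. It was 0.754 and 0.920 at day 0, 1.02 and 1.26 at day 6, and 0.421 and 0.540 in the USP10 table, so that both day 6 controls lay further apart than either from its treated column.

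The summed anti-death mRNA stood at 0.661 of the summed effector mRNA in the day 0 control and at 0.694 in the day 0 knockdown. It was above the effector sum in every day 6 and myotube column. The ratio was 2.11 and 1.76 at day 6, 1.25 and 1.16 in myotubes, and 1.38 and 1.09 in the USP10 table. The treated column was thus lower than its control in these 3 tables and higher at day 0, and the distance between both day 6 controls (2.11 and 1.38) exceeded each of these differences.

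Pmaip1 (chromosome 18, 66458604 to 66465558) encodes Noxa, a BH3-only protein that binds Mcl1 and promotes its turnover. It had the widest range of the family, 6.84-fold. At day 0 it read 12.5 FPKM in control cells and 8.44 FPKM after knockdown (log2 ratio -0.57), a lower ratio than 94.2% of genes. It rose from 7.06 to 34.1 FPKM in the day 6 knockdown (2.27), fell from 18.7 to 4.98 FPKM in knockdown myotubes (-1.91), and read 13.3 and 16.9 FPKM in the USP10 table (0.35). Pmaip1 was the only member past 2-fold in opposite directions in 2 tables. The day 6 knockdown value was the highest of the 8 columns, above both day 6 controls (7.06 and 13.3 FPKM). The myotube knockdown value was the lowest of the 8.

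The ratio of Mcl1 to Pmaip1 followed this pattern, falling from 9.77 to 1.60 at day 6 and rising from 2.46 to 11.2 in myotubes. It was 3.32 and 5.89 at day 0 and 4.02 and 3.25 with USP10. Of the summed BH3-only mRNA, Pmaip1 made up 14.1% in the day 6 control and 44.8% in the day 6 knockdown, against 31.1% and 12.5% in myotubes. The 4 proliferation markers (Mki67, Top2a, Ccnb1, Cdk1) moved in the same direction as Pmaip1 in these 2 tables. Their sum went from 3.09 to 16.0 FPKM in the day 6 knockdown, with 4 of 4 rising. The day 6 control of the USP10 table summed to 12.7 FPKM, nearer to that knockdown than to the other day 6 control. In knockdown myotubes the sum went from 129 to 11.9 FPKM, with 4 of 4 falling. In the other tables the sum was 424 and 489 FPKM at day 0 and 12.7 and 10.4 FPKM with USP10, where the sign was opposite to that of Pmaip1. The part of proliferating cells in the Pmaip1 values was not tested.

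**Figure D3:**
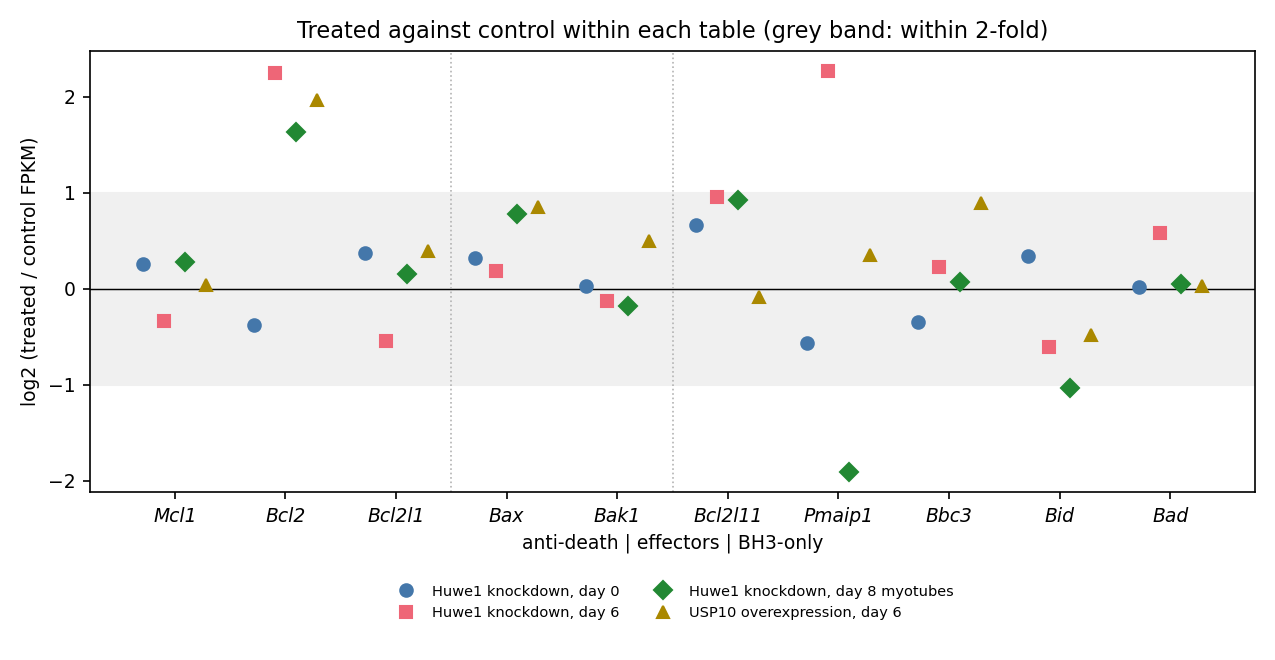
Log2 ratio of treated to control FPKM for each member in each of the 4 tables, with the band within 2-fold shaded. Bcl2 lies above the band in 3 tables, Pmaip1 above it at day 6 (2.27) and below it in myotubes (-1.91), and Bid just below it in myotubes (-1.03).

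Bid (chromosome 6, 120893119 to 120916820) links death receptors to mitochondria after cleavage by caspase 8. It fell in knockdown myotubes, from 20.3 to 9.93 FPKM (log2 ratio -1.03), the member nearest to the 2-fold limit, and with a pseudocount of 1 it was at -0.96. Its values were 22.7 and 28.8 FPKM at day 0 (0.34), 25.9 and 17.0 FPKM at day 6 (-0.61) and 16.1 and 11.5 FPKM with USP10 (-0.49), so that it was lower than control in all 3 tables from differentiation medium. The day 6 knockdown value of 17.0 FPKM was above the control of the USP10 table. Exons of Bid overlap those of Bcl2l13 on the opposite strand. Bcl2l13 went from 16.8 to 7.79 FPKM in the same myotubes, from 23.8 to 9.79 FPKM at day 6 and from 10.2 to 7.71 FPKM with USP10. At day 0 it read 8.01 and 8.55 FPKM, so its sign was that of Bid in each table. Since no source used here states whether reads were counted by strand, the reads of this pair cannot be told apart in any of them. Exons of Bak1 and Bad overlap the opposite-strand genes Ggnbp1, under 1 FPKM in all 8 columns, and Gpr137, at 6.38 to 15.7 FPKM. Those of Bcl2 overlap D630008O14Rik on the opposite strand and those of Bax overlap Gm45808 on the same strand, for which no values were used here, so the same uncertainty applies to them.

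Bcl2l11 (chromosome 2, 128126038 to 128162547), which encodes Bim, an activator bound by all anti-death members, was higher in the 3 Huwe1 knockdowns without reaching 2-fold. It read 1.68 and 2.67 FPKM at day 0 (log2 ratio 0.66), 2.41 and 4.67 FPKM at day 6 (0.95), and 3.39 and 6.43 FPKM in myotubes (0.92). At day 0 only 3.84% of genes had a higher ratio. With USP10 it read 5.99 and 5.63 FPKM (-0.09), and because that control was 2.48-fold above the other day 6 control, the day 6 knockdown value lay between both. Bcl2l11 was the lowest member in 4 of the 8 columns.

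Bbc3 (chromosome 7, 16309583 to 16318334) and Bad (chromosome 19, 6938070 to 6951893) stayed within 2-fold in all 4 tables. Bbc3 encodes Puma, a p53 target. It was 3.63 and 2.86 FPKM at day 0 (log2 ratio -0.34), 5.08 and 5.94 FPKM at day 6 (0.22), 3.37 and 3.55 FPKM in myotubes (0.07) and 4.49 and 8.31 FPKM with USP10 (0.89). The USP10 value was above both day 6 controls. Trp53, the gene of p53, read 26.6 and 25.3 FPKM in that table. Bad, a BH3-only protein inactivated by survival kinases, had the narrowest range over the 8 columns, at 14.04 and 14.2 FPKM at day 0 (0.02), 9.63 and 14.4 FPKM at day 6 (0.58), 14.3 and 14.8 FPKM in myotubes (0.05) and 11.0 and 11.1 FPKM with USP10 (0.02, or -0.03 after centring).

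The ratio of the BH3-only to the anti-death mRNAs was higher than control in the day 6 knockdown and lower in the other 3 treated columns. The BH3-only sum was 0.529 of the anti-death sum in the day 6 control and 0.938 in the day 6 knockdown, and 0.918 and 0.478 in the myotube table. It was 0.929 and 0.826 at day 0 and 0.759 and 0.660 in the USP10 table. Both day 6 controls (0.529 and 0.759) lay further apart than control and treated did at day 0 or with USP10. The day 6 knockdown was above both, with Pmaip1 at 44.8% of its BH3-only sum against 14.1% in its control.

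Counted over the family, 0 of 10 members passed 2-fold at day 0, where 1.69% of 10874 tested genes fell and 1.90% rose, 3.60% together. At day 6, 2 members rose (Bcl2 and Pmaip1) and 0 fell, against 17.6% and 13.4% of 11695 genes, 31.1% together. In myotubes 1 member rose (Bcl2) and 2 fell (Pmaip1 and Bid), against 7.89% and 10.0% of 11755 genes, 17.9% together. With USP10, 1 member rose (Bcl2) and 0 fell, against 9.70% and 10.0% of 11482 genes, 19.7% together. With 10 genes, these counts do not set the family apart from all genes tested. The median log2 ratio of the members was 0.15 at day 0, 0.20 at day 6, 0.11 in myotubes and 0.37 with USP10, and that of all tested genes 0.00, -0.01, 0.00 and 0.05 in the same order.

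**Figure D4:**
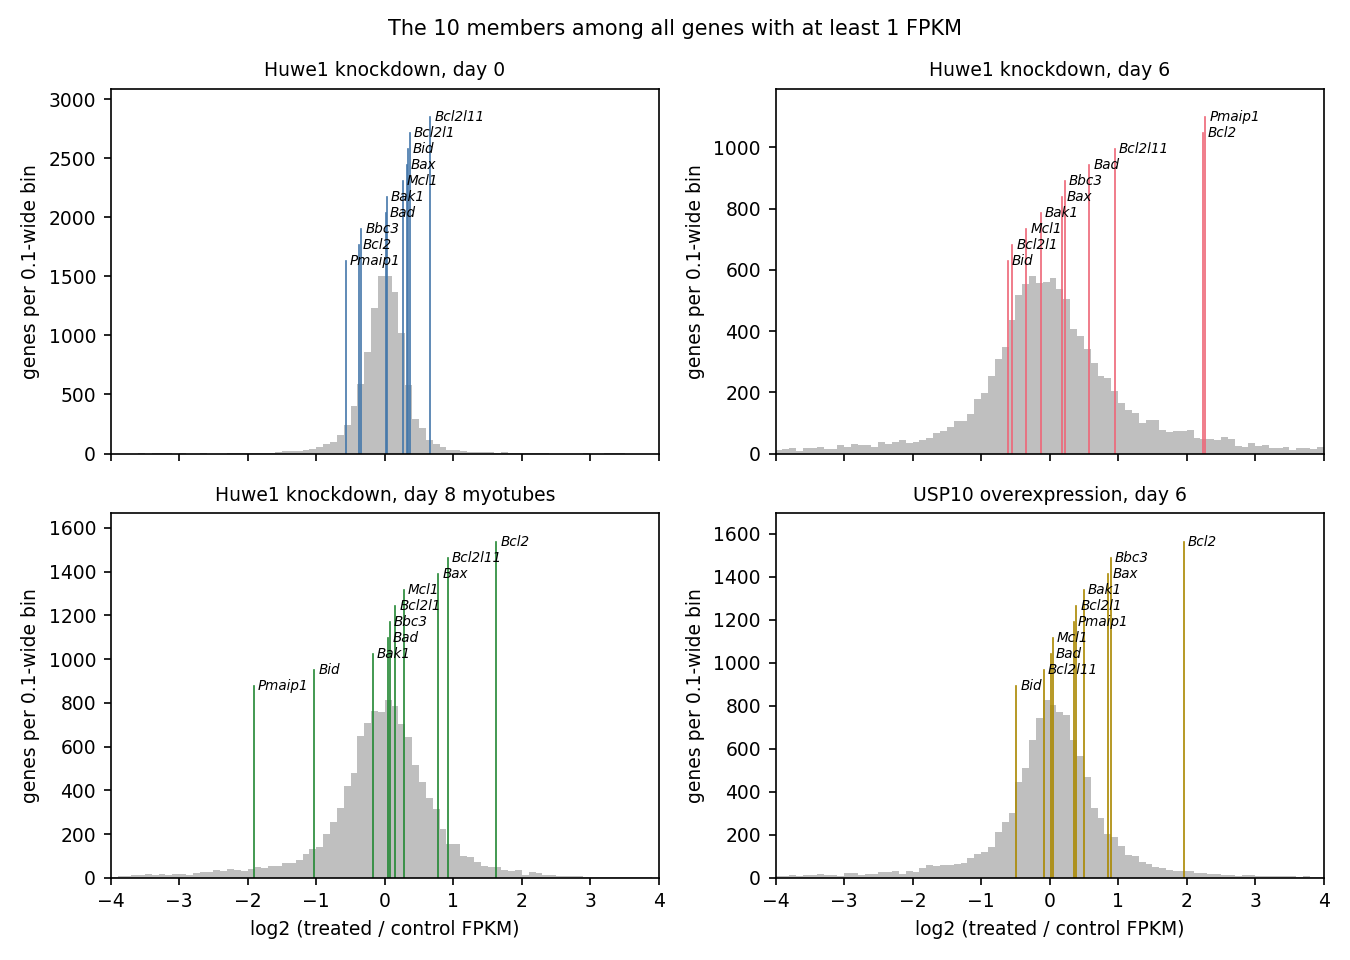
Log2 ratios of all genes with at least 1 FPKM (grey, genes per bin 0.1 wide) in each of the 4 tables, with the 10 members as labelled lines whose heights carry no value. The grey distribution is narrowest at day 0, where the members run from -0.57 to 0.66, and widest at day 6, where Bcl2 and Pmaip1 stand at 2.25 and 2.27.

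A further 53 genes of the apoptosis pathway, in 8 lists, were read in the same way, and 44 of them were tested at day 0 and 45 in the others. At day 0 only Huwe1, listed with the genes that act on Mcl1 turnover, fell, and 0 rose. Of all tested genes 1.69% fell and 1.90% rose there. At day 6, 9 rose and 3 fell, against 17.6% and 13.4% of all tested genes. In myotubes 3 rose and 4 fell, against 7.89% and 10.0%. With USP10 1 rose and 1 fell, against 9.70% and 10.0%. The median log2 ratio over these genes was 0.11, -0.10, -0.05 and -0.04 in the same order of tables. That of all tested genes was 0.00, -0.01, 0.00 and 0.05.

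The largest increases among the pathway genes in the day 6 knockdown were those of Apaf1, the scaffold of the apoptosome (1.09 to 4.47 FPKM), Birc5, the mitotic inhibitor of apoptosis survivin (1.66 to 5.99 FPKM) and E2f1, a cell cycle factor (3.29 to 11.7 FPKM). Its decreases were Htra2 (34.3 to 16.7 FPKM), Fbxw7, a ubiquitin ligase subunit that also recognises Mcl1 (22.5 to 11.0 FPKM), and Aifm1 (70.2 to 35.1 FPKM). For each of these genes the day 6 control of the USP10 table lay between that control and knockdown. It read 1.65 FPKM for Apaf1, 4.87 for Birc5, 6.63 for E2f1, 22.9 for Htra2, 12.8 for Fbxw7 and 68.1 for Aifm1. For Fbxw7 and Birc5 it was close to the knockdown value. Htra2 and Aifm1 encode proteins of the mitochondrial intermembrane space. In the day 6 knockdown 8 of the 9 genes in the mitochondrial and apoptosome list were lower, against 50.3% of all tested genes, with a median log2 ratio of -0.56.

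In knockdown myotubes Birc5 fell from 46.5 to 3.80 FPKM, Usp13, a deubiquitinase known to act on Mcl1, from 13.5 to 3.71 FPKM, and Fbxw7 from 16.7 to 7.71 FPKM. Fas, the death receptor, rose from 15.3 to 61.0 FPKM, and Ddit3, the stress factor Chop, from 47.6 to 150.8 FPKM. Birc5 had the sign of Pmaip1 and of the proliferation markers at day 6 and in myotubes. In the other tables its sign was opposite to that of Pmaip1, with 287 and 334 FPKM at day 0 and 4.87 and 2.91 FPKM with USP10. With USP10 Fas fell from 22.4 to 3.09 FPKM and Apaf1 rose from 1.65 to 3.49 FPKM. The other day 6 control read 6.71 FPKM for Fas and 1.09 FPKM for Apaf1. For Fas much of the difference thus lay within the distance between both day 6 controls, although the USP10 value was below both. In the Mcl1 turnover list 5, 6, 6 and 6 of 7 genes were below their control in the day 0, day 6, myotube and USP10 tables, of which 1, 1, 2 and 0 fell. Among these 7 is Huwe1, which the design lowered in 3 of the tables and which is the 1 that fell at day 0. Over all tested genes 49.7%, 50.3%, 49.9% and 46.7% were below their control in the same order.

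In the control columns, set side by side across tables as a description, Bcl2 was lower after differentiation than at day 0 (log2 difference -1.36 at day 6, -0.82 in the day 6 control of the USP10 table and -1.001 at day 8). Bak1 likewise stood at -1.18, -0.57 and -1.19. Mcl1 was higher in all 3, at 0.73, 0.36 and 0.15, and Bcl2l11 at 0.52, 1.83 and 1.01. For Bcl2l1 both day 6 controls disagreed in sign (1.02 and -0.14), as they did for Bid (0.19 and -0.50) and Pmaip1 (-0.83 and 0.08).

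The genes whose 4 log2 ratios lay nearest to those of Mcl1 were Eif3a, Hspd1, Rchy1, Rufy1 and Ngdn, at Euclidean distances of 0.0671, 0.109, 0.109, 0.120 and 0.146. They were drawn from 4247 genes with at least 10 FPKM in all 8 columns, for which the median distance was 0.930. No other member was among these 5, but only Bcl2l1, Bax and Bak1 could have been. Bcl2, Bcl2l11, Pmaip1, Bbc3, Bid and Bad were under 10 FPKM in at least 1 column and were left out beforehand.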

How the data were processed

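The authors extracted total RNA, purified mRNA on oligo(dT) beads, made directional libraries, mapped the reads with Tophat and Bowtie2 to mm10 and estimated expression with Cuffdiff; tool versions, the annotation and the strand setting are not given in the sources used here. The deposited tables give each gene 1 FPKM value per condition, with both knockdown libraries pooled. They also hold the authors' own log2 fold change, test statistic, p-value, q-value and call, which were not used.

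From the deposited FPKM, the log2 of treated over control was computed after adding a pseudocount of 0.01, which slightly understates changes of low genes. Genes under 1 FPKM in both columns were dropped. A difference of at least 2-fold was counted. All 8 FPKM columns of the 4 tables (10 samples) were used. Where samples have 1 value per condition no test is possible, and family counts and medians are set beside those over all tested genes. The 10 members and the 8 pathway and 7 marker lists, written from general knowledge, were chosen with earlier results of these data known. The pathway genes named were the 3 largest decreases and 3 largest increases past 2-fold in each comparison, and the 5 genes nearest to Mcl1. The results of 1 pathway list are not reported here. Locus coordinates are those of the deposited tables, and all member loci overlapped the gene of that name in GENCODE.

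Depth was read from the FPKM value of 1 fragment on genes whose single annotated transcript spans 1500 bases or more. The computation was tested on simulated data. The 7 alternatives were pseudocounts of 0.1 and 1, 3 other filters on low values, centring on the median gene and a 1.5-fold limit. The tools were pandas 2.3.3 and numpy 2.4.6 under Python 3.11.15, with matplotlib 3.10.9 for plots.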

Additional observations from a re-analysis of the deposited data

Results flagged for a closer look

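Pmaip1 differed in direction between the knockdown at day 6 and the knockdown in myotubes. It rose from 7.06 to 34.1 FPKM at day 6 (log2 ratio 2.27) and fell from 18.7 to 4.98 FPKM in myotubes (-1.91), a difference of 4.18 between both log2 ratios. Each table has 1 value per condition, so the difference was not tested. The hairpins (by the sample labels), the day of infection and the kind of control differed between these tables, and their part in the difference cannot be told apart from that of the stage.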

How the results depend on the processing

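A reversed call on a member was not possible under these alternatives, so its absence carries no weight. A filter can drop a gene but leaves its ratio as it was, and a pseudocount cannot change a sign. Centring moved ratios by at most 0.05, and the 1.5-fold limit was applied to counts only. Of 40 member values, 1 crossed 2-fold: Bid in myotubes stood at -0.96 with a pseudocount of 1, which left 1 member lower there. Another 2 changed sign, both within 0.05 of 0 and both in the USP10 table on centring by the median gene: Mcl1 went to -0.01 and Bad to -0.03. With a 1.5-fold limit 1 member was higher at day 0, 1 was lower at day 6, and 3 were higher in myotubes and 3 with USP10. The median log2 ratio of the members stayed above 0 in all 4 tables under each alternative run on it.

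Counts over all genes, 184 lower and 207 higher at day 0, 1571 and 2061 at day 6, 1180 and 928 in myotubes, and 1153 and 1114 with USP10, moved more. Without a filter they were 953 and 1710, 3141 and 3937, 3640 and 2408, and 2880 and 2983 in the same order. With at least 5 FPKM in 1 column they were 90 and 117 at day 0, 771 and 502 in myotubes and 658 and 740 with USP10, and 1357 higher at day 6. With at least 1 FPKM in both columns they were 106 and 91, 783 and 544, and 669 and 741 in those 3 tables, and 1284 higher at day 6. A pseudocount of 1 gave 88 and 124 at day 0 and 545 higher in myotubes. At 1.5-fold they were 600 and 513, 2745 and 3111, 2141 and 2051, and 1928 and 2164. The cause was not tested beyond the change in the genes counted.

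No paired analysis was possible because the knockdown libraries are pooled into 1 column and the columns carry no replicate numbers. Leaving out single replicates was not possible for the same reason. In the control columns depth limits Bcl2 and Bcl2l11 most, and the control of the USP10 table is the shallowest of the 5 columns with an estimate.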

Other observations

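The remaining lists reported here are set beside the share of all tested genes past 2-fold. That share was 3.60% at day 0, 31.1% at day 6, 17.9% in myotubes and 19.7% with USP10. Of the other pro-death and BNIP genes, 3 were tested at day 0 and 4 in each later comparison, and only Bok, a relative of Bax and Bak1, passed 2-fold, falling from 6.81 to 3.28 FPKM in knockdown myotubes. Bok was higher in the day 6 knockdown (2.95 and 5.07 FPKM) and with USP10 (1.43 and 2.78 FPKM), both short of 2-fold. Of 4 tested inhibitors of apoptosis, Birc5 alone passed 2-fold, upward at day 6 and downward in myotubes. In the death receptor list of 7 genes, Ripk1 (4.03 to 9.47 FPKM) and Cflar (10.5 to 23.0 FPKM) rose in the day 6 knockdown. Cflar is a decoy of caspase 8. The day 6 control of the USP10 table read 7.98 FPKM for Ripk1 and 10.1 FPKM for Cflar. Fas alone passed 2-fold in myotubes and with USP10, in opposite directions, with day 6 controls at 6.71 and 22.4 FPKM. Of 7 tested regulators of BH3-only genes, E2f1 rose at day 6 and Ddit3 in myotubes, and 0 passed 2-fold at day 0 or with USP10. In the mitochondrial and apoptosome list 7 of 9 genes were lower in knockdown myotubes (median log2 ratio -0.35), with 0 past 2-fold. At day 0 the same list had 7 of 9 higher and 0 past 2-fold. Among all tested genes 49.9% were lower in myotubes and 50.3% were higher at day 0. None of these differences has a replicate check, and none between comparisons was tested.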
